A study of Mus musculus with 6 samples.

Results

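The genes described here are the chondrogenic regulators Sox9, Sox5 and Sox6 (the Sox trio) and the cartilage matrix genes Col2a1, Col9a1, Col9a3, Acan, Matn1 and Cnmd. They were chosen by name, as regulators and products of early cartilage, and make up 9 of the 16687 genes with a row in either count matrix. All 9 have a row in both matrices, and 15668 genes do. Cnmd stands in the mouse annotation under its older symbol Lect1. The libraries are droplet single-cell RNA-seq of mouse limb buds at E11.5, with transcripts counted at their 3′ ends as unique molecular identifiers (UMIs), and the study asked how rearrangements at the Lbx1/Fgf8 locus, which cause split-hand/foot malformation type 3 in humans, change expression in limb cells.

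There are 6 libraries, 1 per condition. Dup hindlimb came from embryos homozygous for a tandem duplication at that locus, on the strain given as c57bl6.J, and is set against wild-type hindlimb of the same strain (C57BL/6 wild type). Inv1 hindlimb and Inv1 forelimb came from embryos homozygous for an inversion at the locus, on the strain given as G4 ESC, a hybrid embryonic stem cell line, and are set against wild-type hindlimb and forelimb of that strain (G4 wild type). Mutant embryos descend from genome-edited embryonic stem cell clones. With 1 library a condition there is no replicate, so no test between conditions was possible, every interval given is a 95% interval for counting error only, and genotype cannot be told apart from embryo, exact stage, dissection or library. In the files as deposited, C57BL/6 and Dup cells carry finer classes of mesenchyme, while G4 and Inv1 cells carry broad classes only.

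Limb cartilage begins as condensations inside the mesenchyme, the connective tissue precursor that fills the limb bud. Sox9 is the transcription factor that starts the programme, Sox5 and Sox6 are related factors that act with it, and together they drive collagen II (Col2a1) and the other matrix genes of the list. The skeleton forms from the body outward, so that the stylopod (upper limb) condenses before the zeugopod (lower limb) and the autopod (hand or foot).

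After keeping cells with more than 2000 detected genes, 24891 of 26486 cells remained, 2249 to 5947 per library, with 22660212 to 59418209 UMIs and a median of 6729 to 10102 UMIs per cell in a library. Mesenchyme made up 90.0% to 92.9% of the cells. Its marker Prrx1 stood at 419 to 680 CPM (UMIs of the gene in 1000000 UMIs of the class), and the limb labels held, with the hindlimb gene Pitx1 at 216 to 333 CPM in hindlimb libraries and 0.43 to 0.84 CPM in forelimb libraries. The G4 wild-type forelimb library stood apart, since ribosomal protein genes took 17.9% of its mesenchymal UMIs, against 19.2% to 22.6% in the other libraries, and ratios to its whole mesenchyme are also given relative to genes of like level. Ratios within subsets of its cells were not adjusted in this way. Within a matrix, 54 cell barcodes occurred in a pair of libraries, and without those cells no median or count of members given here for a mutant over its wild type moved beyond its interval.

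The mesenchyme held 91.1% to 100% of the UMIs of each gene in each library, so the levels below are CPM in mesenchymal cells unless another class is named. Because 3′ counting favours some transcripts over others, levels are compared within a gene, not between genes. In such pooled cells, fewer expressing cells and less RNA per cell cannot be told apart from the sum alone.

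Sox9, the founding factor of cartilage, was measured at 182 CPM (177 to 187) in Dup hindlimb and 323 CPM (315 to 331) in C57BL/6 wild-type hindlimb. It stood at 148 CPM (145 to 151) in Inv1 hindlimb and 164 CPM (160 to 167) in G4 wild-type hindlimb, and at 203 CPM (199 to 208) in Inv1 forelimb and 322 CPM (315 to 329) in G4 wild-type forelimb. In rising order, Inv1 hindlimb, G4 wild-type hindlimb, Dup hindlimb and Inv1 forelimb were followed by the 2 highest libraries, G4 wild-type forelimb and C57BL/6 wild-type hindlimb, whose intervals overlap. The ratio of the mutant to its wild type was 0.56 (0.54 to 0.58) for Dup, 0.90 (0.88 to 0.93) for Inv1 hindlimb and 0.63 (0.61 to 0.65) for Inv1 forelimb.

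Sox5 and Sox6, which bind beside Sox9 on cartilage enhancers, had mutant levels below wild type in the same pairs. Sox5 was at 32.7 CPM in Dup and 48.2 CPM in C57BL/6 wild type, at 36.3 CPM in Inv1 hindlimb and 38.9 CPM in G4 wild-type hindlimb, and at 52.5 CPM in Inv1 forelimb and 91.8 CPM in G4 wild-type forelimb. Sox6 was at 21.0 CPM in Dup and 31.6 CPM in C57BL/6 wild type, at 19.3 CPM in Inv1 hindlimb and 20.7 CPM in G4 wild-type hindlimb, and at 32.3 CPM in Inv1 forelimb and 53.0 CPM in G4 wild-type forelimb. For Sox5 the ratios were 0.68, 0.93 and 0.57 in Dup, Inv1 hindlimb and Inv1 forelimb, and for Sox6 they were 0.67, 0.93 and 0.61. The interval of the Sox6 ratio in Inv1 hindlimb, 0.85 to 1.02, includes 1. In cells with over 3000 detected genes the log2 ratios of Inv1 hindlimb were 0.06 for Sox9, 0.04 for Sox5 and 0.08 for Sox6, against -0.15, -0.10 and -0.10 in all cells kept, so these small differences have no stable sign.

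Col2a1 encodes the main collagen of cartilage. It was at 75.7 CPM (72.7 to 78.9) in Dup and 154 CPM (148 to 160) in C57BL/6 wild type, at 77.8 CPM (75.4 to 80.3) in Inv1 hindlimb and 99.3 CPM (96.5 to 102) in G4 wild-type hindlimb, and at 111 CPM (107.6 to 114.5) in Inv1 forelimb and 218 CPM (212 to 224) in G4 wild-type forelimb. The ratios were 0.49 (0.47 to 0.52), 0.78 (0.75 to 0.82) and 0.51 (0.49 to 0.53). Over the whole mesenchyme Col2a1 was thus further below its wild type than Sox9 was in each of the 3 pairs, an order that did not hold in every subset of cells described below.

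Col9a1 and Col9a3 encode chains of collagen IX, which coats the collagen II fibril. Col9a1 was at 110 CPM in Dup and 140 CPM in C57BL/6 wild type, at 131 CPM in Inv1 hindlimb and 107 CPM in G4 wild-type hindlimb, and at 165 CPM in Inv1 forelimb and 216 CPM in G4 wild-type forelimb. Its ratio was 0.78 (0.74 to 0.82) in Dup, 1.23 (1.19 to 1.27) in Inv1 hindlimb and 0.76 (0.73 to 0.79) in Inv1 forelimb, and Inv1 hindlimb is the pair where a gene of the list with 10 CPM or more on average was above its wild type. Col9a3 was at 39.3 CPM in Dup and 64.0 CPM in C57BL/6 wild type (0.61, 0.57 to 0.67), at 31.7 CPM in Inv1 hindlimb and 39.4 CPM in G4 wild-type hindlimb (0.81, 0.75 to 0.86), and at 51.4 CPM in Inv1 forelimb and 56.96 CPM in G4 wild-type forelimb (0.90, 0.84 to 0.97).

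**Figure D1:**
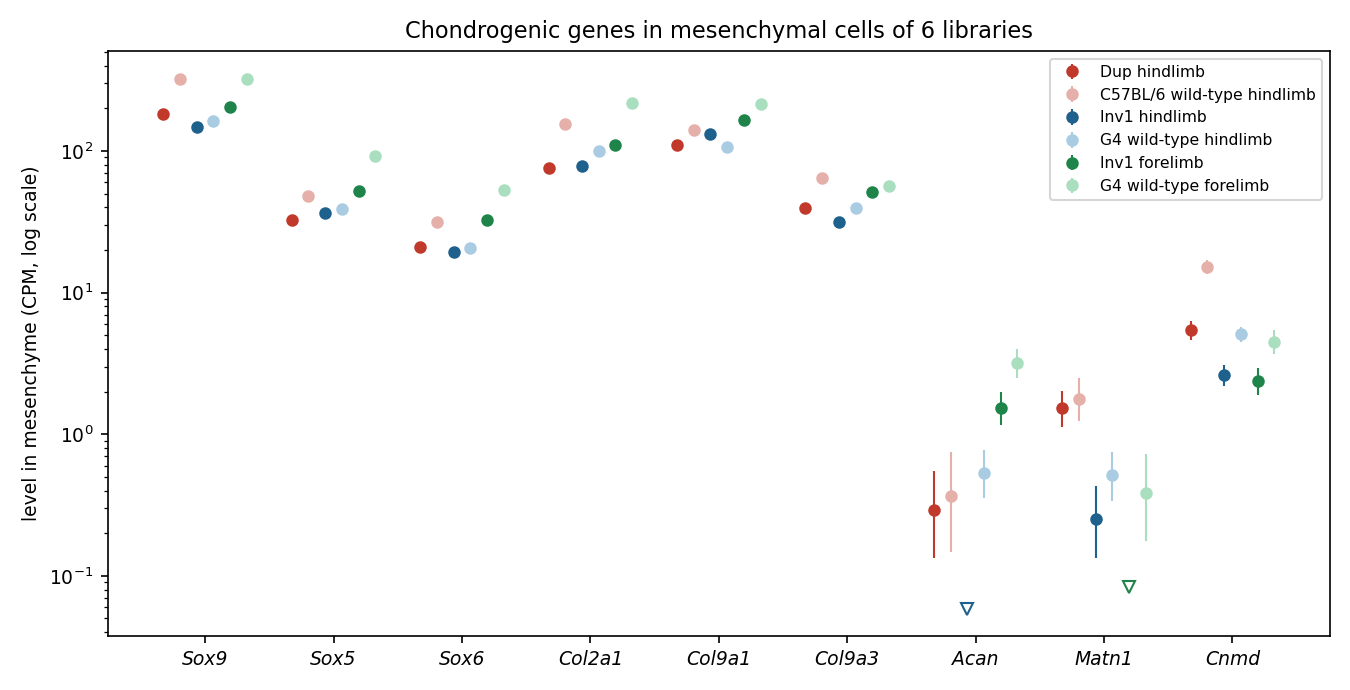
Level of each gene in mesenchymal cells (CPM, log scale) by library, with bars for 95% Poisson intervals; open triangles mark libraries with no UMI, placed at the level of 3 counts. Each mutant point stands left of its wild type, and Dup lies below C57BL/6 wild type for every gene, with overlapping bars for Acan and Matn1.

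Acan (aggrecan, the large proteoglycan of cartilage), Matn1 (matrilin 1, which bridges collagen and proteoglycan) and Cnmd (chondromodulin, a membrane protein of avascular cartilage) were rare at this stage. Acan gave 9 UMIs in Dup and 7 in C57BL/6 wild type, 0 in Inv1 hindlimb and 27 in G4 wild-type hindlimb, and 55 in Inv1 forelimb and 74 in G4 wild-type forelimb. Matn1 gave 47 UMIs in Dup and 34 in C57BL/6 wild type, 13 in Inv1 hindlimb and 26 in G4 wild-type hindlimb, and 0 in Inv1 forelimb and 9 in G4 wild-type forelimb. Cnmd was at 5.43 CPM in Dup and 15.2 CPM in C57BL/6 wild type, at 2.62 CPM in Inv1 hindlimb and 5.09 CPM in G4 wild-type hindlimb, and at 2.38 CPM in Inv1 forelimb and 4.49 CPM in G4 wild-type forelimb.

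Over the whole mesenchyme Cnmd was lower in all 3 mutants, with ratios of 0.36 (0.29 to 0.43), 0.52 (0.41 to 0.64) and 0.53 (0.39 to 0.71). In Inv1 this did not hold in every kind of cell described below. Acan had no UMI in Inv1 hindlimb and Matn1 none in Inv1 forelimb. Their wild-type levels were 9.17 times the mutant floor of 3 counts for Acan and 4.59 times for Matn1. These multiples leave out the counting error of the wild-type UMIs, so they are no lower bounds. These UMIs lay in few cells, since the 27 Acan UMIs of G4 wild-type hindlimb came from 19 cells, 10 of them in the 3 highest cells, and the 9 Matn1 UMIs of G4 wild-type forelimb from 6 cells. In Dup neither gene could be told from its wild type at this depth, with ratios of 0.79 (0.26 to 2.51) for Acan and 0.85 (0.54 to 1.37) for Matn1.

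The bases in front of 3 of these genes are shown so that the rare matrix genes can be set beside Col9a1, which was above its wild type in Inv1 hindlimb. Each run is the 250 bases that end just before the RefSeq gene start, written along the gene (GRCm38.p6, chr4:130944135-130944384 on the plus strand for Matn1, chr14:79662184-79662433 on the minus strand for Cnmd and chr1:24177360-24177609 on the plus strand for Col9a1, which has a further annotated start). Capitals mark matches to the core that Sox proteins bind, searched as ACAANG and, for the other strand, CNTTGT.
Matn1: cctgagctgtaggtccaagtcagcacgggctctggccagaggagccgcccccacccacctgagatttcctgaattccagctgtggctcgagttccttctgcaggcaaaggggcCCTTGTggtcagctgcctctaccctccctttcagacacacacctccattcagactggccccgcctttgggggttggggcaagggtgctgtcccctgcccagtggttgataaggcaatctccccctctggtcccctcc
Cnmd: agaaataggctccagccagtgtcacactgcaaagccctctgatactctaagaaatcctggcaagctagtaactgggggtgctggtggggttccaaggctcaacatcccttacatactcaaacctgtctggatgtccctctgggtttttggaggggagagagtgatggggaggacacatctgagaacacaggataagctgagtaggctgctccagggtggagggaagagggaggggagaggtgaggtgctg
Col9a1: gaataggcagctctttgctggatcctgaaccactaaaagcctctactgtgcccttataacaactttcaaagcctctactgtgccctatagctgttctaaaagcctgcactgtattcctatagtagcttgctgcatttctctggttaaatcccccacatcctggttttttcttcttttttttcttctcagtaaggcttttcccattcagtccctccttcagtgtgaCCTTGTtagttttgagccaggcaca
Matn1 had 1 match, 137 bases before its start, Col9a1 had 1 match, 25 bases before its start, and Cnmd had none. The core is short, and 36.3% of 32851 such mouse windows hold it, so a match is a description and no binding site. Windows were at hand for 6 of the 9 genes, and 8 of their 12 windows held a match. Several of these are alternative starts of Sox6 alone, so this share cannot be set against the 36.3%. The window of the further Col9a1 start held no match. In the annotation of the NCBIM37 build, the 9 genes lie on 8 chromosomes, from Col9a1 on chromosome 1 to Col2a1 on chromosome 15, with Sox6 and Acan both on chromosome 7 at 122614858 to 123182258 and 86198369 to 86259985, and Sox9 on chromosome 11 at 112643538 to 112649074.

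Set against all genes, the list was low in Dup. Of the genes with a mean of 10 CPM or more over the pair, 1.95% of 7966 were lower in Dup by 1.5-fold or more and 0.716% were higher. Among the 7 listed genes at that level, 5 were lower (Sox9, Sox6, Col2a1, Col9a3 and Cnmd) and 0 higher, and the median log2 ratio was -0.70 over the 7 genes and -0.07 over all genes. In Inv1 forelimb 9.22% of 8630 genes were lower and 0.417% higher, 4 of 6 listed genes were lower (Sox9, Sox5, Sox6 and Col2a1) and 0 higher, and the median was -0.69 against -0.17 over all genes. In Inv1 hindlimb 0.327% of 7947 genes were lower and 0.503% higher, 0 of 6 listed genes passed in either direction, and the median was -0.12 against 0.04.

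Because the G4 wild-type forelimb library differs in make-up, each forelimb ratio was also taken relative to genes of like level. On that log2 scale Inv1 forelimb was at -0.69 for Sox9, -0.66 for Sox5, -0.53 for Sox6, -0.95 for Col2a1 and -0.39 for Col9a1, and at 0.03 for Col9a3, which was then level with like genes. With that scale 3 listed genes were lower by 1.5-fold or more, not 4. Of the rare genes, Cnmd was at -0.75 and Acan at -0.90 on it.

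**Figure D2:**
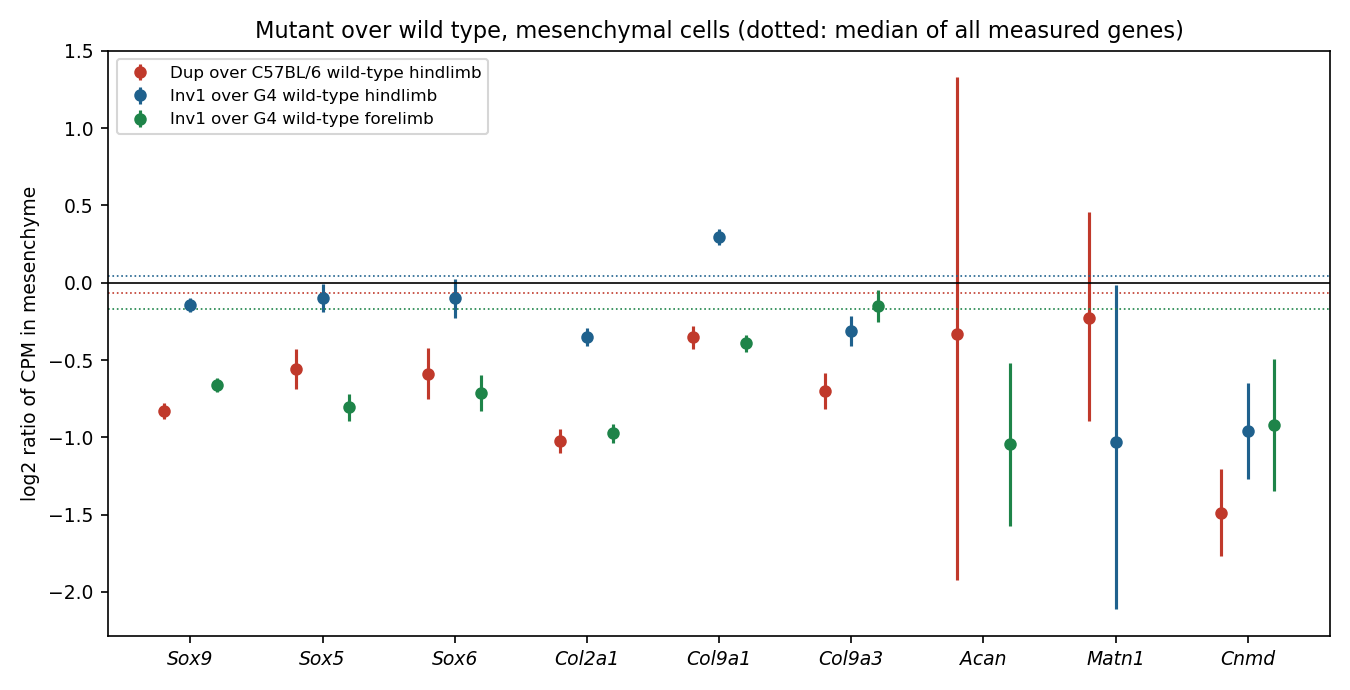
Log2 ratio of each mutant to its wild type in mesenchymal cells, with bars for 95% intervals of counting error and dotted lines at the median of all measured genes in the pair; genes without a UMI in the mutant are not drawn. In whole mesenchyme Col2a1 sits below Sox9 in every pair, and Col9a1 in Inv1 hindlimb lies above 0.

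Wild-type libraries also differed from each other by as much. G4 wild-type hindlimb was below C57BL/6 wild-type hindlimb with ratios of 0.51 for Sox9, 0.64 for Col2a1, 0.61 for Col9a3 and 0.33 for Cnmd, and 5 of 7 listed genes were lower by 1.5-fold or more, against 6.17% of 7993 genes lower and 1.61% higher. G4 wild-type forelimb was above G4 wild-type hindlimb with ratios of 1.97 for Sox9, 2.36 for Sox5, 2.57 for Sox6, 2.20 for Col2a1 and 2.02 for Col9a1, and 5 of 6 were higher by 1.5-fold or more. There, however, 31.3% of 8440 genes were higher and 0.699% lower, and the median log2 ratio was 1.07 over the 6 listed genes and 0.33 over all genes. Relative to genes of like level the log2 ratios there were 1.10 for Sox9, 0.97 for Sox5 and for Sox6, 1.12 for Col2a1, 1.00 for Col9a1 and 0.19 for Col9a3, with 5 of 6 still higher by 1.5-fold or more. A difference of the size seen in Dup therefore also occurred between 2 wild-type hindlimb libraries, of different strains and in different matrices.

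The authors' finer classes divide the mesenchyme of Dup and C57BL/6 hindlimb, and they were made by clustering cells on expression that may have included these genes, so the levels per class are descriptions. Sox9 was highest in stylopod chondrocyte progenitors, at 1006 CPM in Dup and 1316 CPM in wild type. In Dup the order then ran through autopod chondrocyte progenitors at 538 CPM, stylopod mesenchyme at 294 CPM and zeugopod mesenchyme at 147 CPM to autopod mesenchyme at 69.7 CPM and muscle connective tissue at 61.1 CPM, of which the last 2 overlap in their intervals. In wild type, autopod chondrocyte progenitors at 380 CPM and stylopod mesenchyme at 378 CPM were level with each other, followed by zeugopod mesenchyme at 206 CPM, muscle connective tissue at 116 CPM and autopod mesenchyme at 95.6 CPM, whose intervals overlap.

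Matrix genes were higher in the stylopod class than in the autopod class, although both are called chondrocyte progenitors. Col9a1 was less clear in Dup, at 344 CPM (305 to 386) in the stylopod class and 295 CPM (270 to 321) in the autopod class. In wild type it was at 316 CPM and 199 CPM. Col2a1 was at 623 CPM in Dup and 775 CPM in wild type in stylopod chondrocyte progenitors, and at 88.1 CPM in Dup and 87.5 CPM in wild type in autopod chondrocyte progenitors. In the autopod class Acan and Matn1 had no UMI in either library, a limit of 1.69 CPM in Dup and 2.95 CPM in wild type by the floor of 3 counts. Cnmd had 1 UMI there in Dup and 2 in wild type. In the stylopod class of Dup, 42 UMIs of Matn1, 7 of Acan and 75 of Cnmd were counted, against 24, 6 and 186 in that of wild type.

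**Figure D3:**
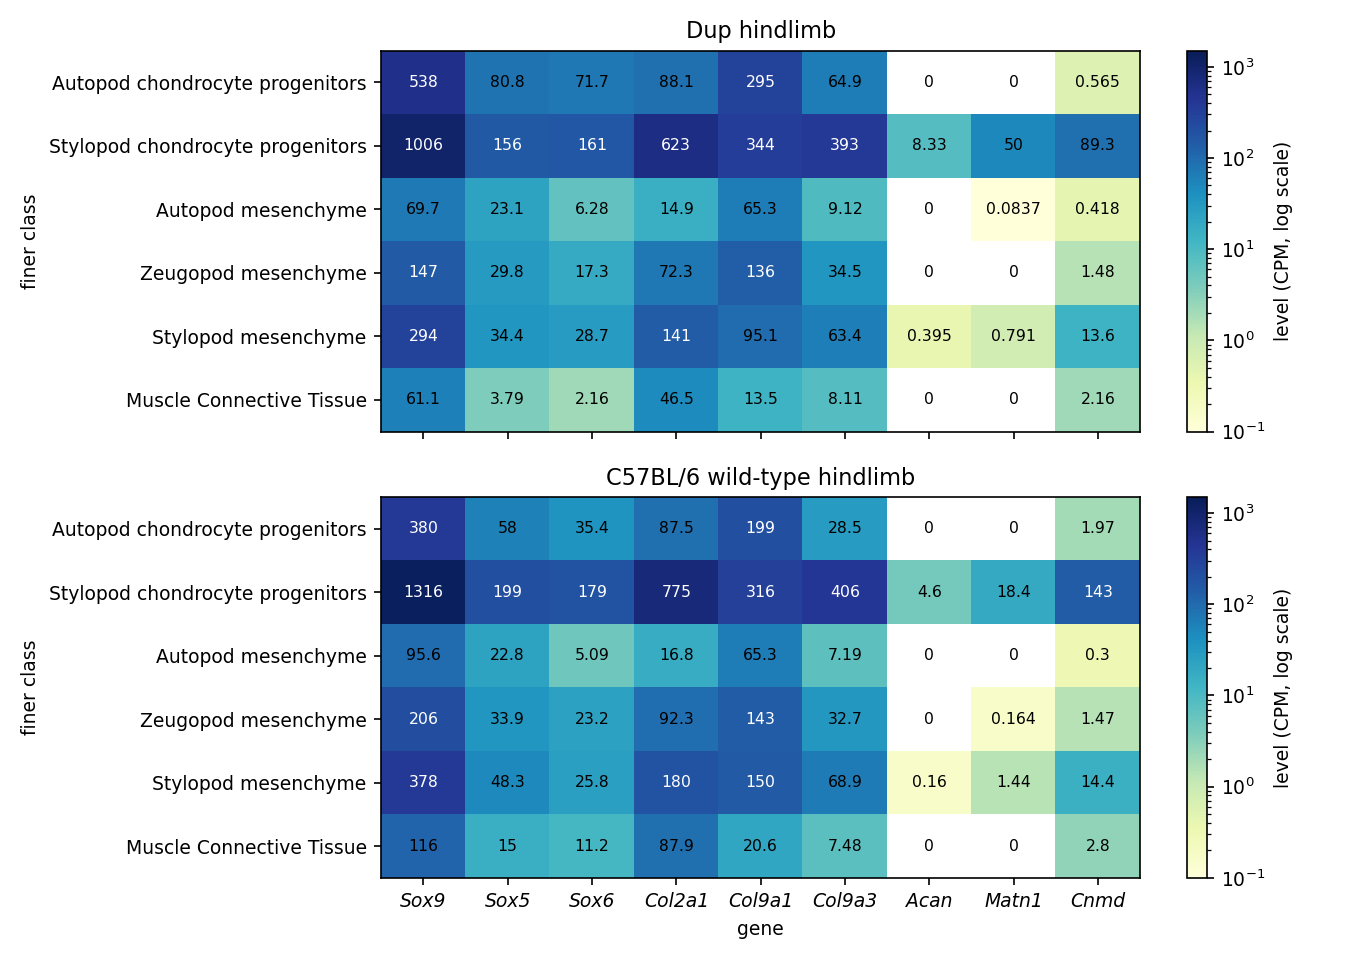
Level (CPM, color on a log scale, value printed in each cell) of the 9 genes in the 6 finer mesenchymal classes of Dup (top) and C57BL/6 wild-type hindlimb (bottom); white cells had no UMI. Stylopod chondrocyte progenitors carry the highest level of all 9 genes in both libraries, while autopod chondrocyte progenitors hold the Sox trio with no Acan or Matn1.

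The mix of classes moved with the result. Stylopod chondrocyte progenitors were 128 of 4253 mesenchymal cells in Dup (3.01%, 2.52% to 3.57%) and 168 of 2025 in wild type (8.30%, 7.13% to 9.58%). Stylopod mesenchyme was 18.2% in Dup and 34.0% in wild type, autopod mesenchyme was 34.5% in Dup and 16.1% in wild type, and zeugopod mesenchyme was 31.7% in Dup and 31.5% in wild type. Autopod chondrocyte progenitors went the other way from the stylopod class, at 6.395% in Dup and 4.44% in wild type. Stylopod chondrocyte progenitors alone carried 22.3% of mesenchymal Col2a1 UMIs in Dup and 34.4% in wild type, and 15.04% of Sox9 UMIs in Dup and 27.8% in wild type.

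With every finer class given the same weight in both libraries, the median log2 ratio of the 7 genes in Dup was -0.24 and 0 genes were lower by 1.5-fold or more. Sox9 was then at -0.33, Sox5 at -0.24, Col2a1 at -0.34 and Cnmd at -0.43, while Sox6 at -0.02 and Col9a3 at 0.02 were near 0. Within classes, Sox9 was lower in Dup in 5 of 6 classes, with ratios of 0.76 in stylopod chondrocyte progenitors, 0.78 in stylopod mesenchyme, 0.71 in zeugopod mesenchyme, 0.73 in autopod mesenchyme and 0.53 in muscle connective tissue, every interval below 1. Col2a1 was at 0.80 (0.72 to 0.89) in stylopod chondrocyte progenitors, 0.79 in stylopod mesenchyme, 0.78 in zeugopod mesenchyme and 0.53 in muscle connective tissue, and its interval included 1 in autopod mesenchyme (0.89, 0.65 to 1.22). With equal weights, and within stylopod chondrocyte progenitors, Col2a1 was therefore about as far below wild type as Sox9.

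Autopod chondrocyte progenitors were the exception. There Sox9 was at 538 CPM in Dup and 380 CPM in wild type (ratio 1.42, 1.26 to 1.60), Sox6 at 71.7 CPM in Dup and 35.4 CPM in wild type (2.03, 1.39 to 3.02), Col9a1 at 295 CPM in Dup and 199 CPM in wild type (1.48, 1.26 to 1.76) and Col9a3 at 64.9 CPM in Dup and 28.5 CPM in wild type (2.28, 1.505 to 3.55). Sox5 was also higher (1.39, 1.02 to 1.92), and Col2a1 was equal within counting error (1.007, 0.77 to 1.32). Position markers of this class moved too, since the listed autopod genes summed to 704 CPM in Dup and 526 CPM in wild type, the zeugopod genes to 286 CPM in Dup and 411 CPM in wild type, and the stylopod or proximal genes to 52.0 CPM in Dup and 134 CPM in wild type. The class held 272 cells at a median of 5727 UMIs in Dup and 90 cells at 9831.5 UMIs in wild type. Those wild-type cells gave 36 UMIs of Sox6 and 29 of Col9a3. The parts of position mix and depth in the rise were not tested. Matn1 was higher in the stylopod chondrocyte progenitors of Dup, at 49.99 CPM in Dup and 18.4 CPM in wild type (2.72, 1.61 to 4.69), where Cnmd was lower, at 89.3 CPM in Dup and 143 CPM in wild type (0.63, 0.47 to 0.82). Those 42 and 24 Matn1 UMIs came from 25 cells in Dup and 19 in wild type.

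G4 and Inv1 cells have no finer classes, so mesenchymal cells of all libraries were sorted by position genes instead: cells with a UMI of Hoxa13 or Hoxd13 (genes of the autopod), other cells with a UMI of Meis1 or Meis2 (genes of the proximal limb), and cells with neither. The Hox13 cells were 53.4% of mesenchyme in Dup and 34.4% in C57BL/6 wild type, 61.8% in Inv1 hindlimb and 45.2% in G4 wild-type hindlimb, and 73.7% in Inv1 forelimb and 64.9% in G4 wild-type forelimb. All 3 mutant libraries thus held a larger share of cells with a UMI of these autopod genes than their wild types. The shares were taken without thinning and so depend on depth. Median depth was 9807 UMIs in Inv1 forelimb and 8223 in its wild type, while both hindlimb mutants were shallower than theirs. Whether depth, dissection, stage or genotype set these shares was not tested.

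Inv1 hindlimb differed in opposite directions in the distal and proximal cells. In Hox13 cells Sox9 was at 145 CPM in Inv1 and 112 CPM in wild type (1.30, 1.24 to 1.36), with Sox5 at 1.30, Sox6 at 1.43, Col2a1 at 1.27 and Col9a1 at 1.44. In Meis cells Sox9 was at 142 CPM in Inv1 and 247 CPM in wild type (0.58, 0.53 to 0.63), with Sox5 at 0.48, Sox6 at 0.47, Col2a1 at 0.63, Col9a1 at 0.56 and Col9a3 at 0.55. The difference between the 2 kinds of cell was not tested. In cells with neither UMI the ratio was 0.79 for Sox9, 0.88 for Col2a1 and 1.06 for Col9a1, so Col2a1 was less reduced than Sox9 in these and in Meis cells, and the small differences in whole Inv1 hindlimb mesenchyme combine these cells.

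Dup and Inv1 forelimb did not show this. Sox9 was lower in all 3 kinds of cell in Dup, with ratios of 0.65 in Hox13 cells, 0.63 in Meis cells and 0.61 in the others, and so was Col2a1, with 0.54, 0.65 and 0.59. In Inv1 forelimb Sox9 was at 0.69 in Hox13 cells, 0.28 in Meis cells and 0.60 in the others, and Col2a1 at 0.56, 0.33 and 0.61, with only 68 Meis cells in Inv1 and 114 in wild type. Cnmd in the same order was at 0.30, 0.56 and 0.48 in Dup, every interval below 1. In Inv1 forelimb Cnmd was at 0.86 (0.49 to 1.56), 0.94 (0.46 to 1.90) and 0.50 (0.32 to 0.76).

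A smaller share of mutant than of wild-type mesenchymal cells had a Sox9 UMI. The share was 44.9% in Dup and 64.7% in C57BL/6 wild type, 45.5% in Inv1 hindlimb and 47.9% in G4 wild-type hindlimb, and 46.5% in Inv1 forelimb and 59.2% in G4 wild-type forelimb, at median depths of 6611 and 8251, 8738 and 8937, and 9807 and 8223 UMIs. With every cell thinned to 4000 UMIs the shares were 35.5% in Dup and 51.1% in wild type, 31.4% in Inv1 hindlimb and 34.3% in wild type, and 34.0% in Inv1 forelimb and 45.6% in wild type. As background, 2.22% to 37.5% of endothelial cells, which should lack Sox9, had a UMI of it, at median depths of 8715 to 21337 UMIs and in 16 to 45 cells a library, and each mesenchymal share was above that of endothelium in its library. In G4 wild-type forelimb the endothelial interval, 15.2% to 64.6% of 16 cells, includes the mesenchymal share. Immune cells, which should lack Sox9 too, had a UMI of it in 21.2% of cells in Dup and 41.4% (23.5% to 61.1%) in C57BL/6 wild type, 7.41% in Inv1 hindlimb and 5.26% in G4 wild-type hindlimb, and 27.3% (6.02% to 61.0%) in Inv1 forelimb and 15.4% in G4 wild-type forelimb, in 11 to 52 cells of median depth 8667 to 13533 UMIs. Each mesenchymal share was above that of immune cells, but lay within the immune interval in Inv1 forelimb. Thinning kept 4237 of 4253 mesenchymal cells in Dup and 1996 of 2025 in C57BL/6 wild type, 5380 of 5384 in Inv1 hindlimb and 5184 of 5191 in G4 wild-type hindlimb, and 3334 of 3337 in Inv1 forelimb and 2539 of 2570 in G4 wild-type forelimb.

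Matrix genes were detected more often in cells with a Sox9 UMI. In thinned mesenchyme Col2a1 was detected in 35.1% of cells with a Sox9 UMI and 11.6% of those without in Dup, in 50.2% and 18.8% in C57BL/6 wild type, in 35.5% and 14.4% in Inv1 hindlimb, in 47.4% and 15.04% in G4 wild-type hindlimb, in 45.1% and 16.2% in Inv1 forelimb, and in 55.8% and 21.4% in G4 wild-type forelimb. Before thinning, 0 to 31.2% of endothelial cells had a Col2a1 UMI. Cells with a UMI of all 3 Sox genes were 1.89% in Dup and 3.26% in C57BL/6 wild type, 1.71% in Inv1 hindlimb and 2.20% in G4 wild-type hindlimb, and 4.71% in Inv1 forelimb and 7.72% in G4 wild-type forelimb. Of such cells in Dup, 25.0% also had all 3 collagens (Col2a1, Col9a1 and Col9a3), against 1.09% of cells with none of the 3 Sox genes, and in C57BL/6 wild type the shares were 36.9% and 0.23%. Read the other way, 20 of the 184 cells with all 3 collagens in Dup and 24 of the 153 in C57BL/6 wild type had all 3 Sox genes, so most did not at this depth.

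Col2a1 was also compared between cells with the same number of Sox9 UMIs. In thinned cells with 4 or more Sox9 UMIs, Col2a1 was at 408 CPM in Dup and 596 CPM in wild type (0.68, 0.60 to 0.78), at 365 CPM in Inv1 hindlimb and 484 CPM in wild type (0.75, 0.66 to 0.87), and at 613 CPM in Inv1 forelimb and 858 CPM in wild type (0.71, 0.65 to 0.78). Over cells with 0, 1, 2 to 3 and 4 or more Sox9 UMIs, the Col2a1 ratio ran from 0.58 to 0.75 in Dup and from 0.61 to 0.72 in Inv1 forelimb, below 1 beyond counting error in all 4 groups of cells, and from 0.71 to 0.91 in Inv1 hindlimb, below 1 beyond counting error in 3 of 4. The counts of Sox9 are low, so cells of like counts need not have like Sox9 RNA. These groups also pool finer classes, whose mix differed between Dup and C57BL/6 wild type. In that wild type Col2a1 was at 775 CPM in stylopod and 87.5 CPM in autopod chondrocyte progenitors. The stylopod class was 3.01% of mesenchyme in Dup and 8.30% in wild type. The part of the class mix in the Col2a1 ratios was not tested, and Inv1 cells have no finer classes.

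Col9a1 differed from Col2a1 in these cells. Its ratio was between 0.87 and 1.15 in Dup, below 1 beyond counting error in 1 of 4 groups. In Inv1 forelimb it was between 0.78 and 1.13, below 1 beyond counting error in 1 group and above 1 in 1 group. In Inv1 hindlimb it was between 1.11 and 1.67, above 1 beyond counting error in 3 of 4 groups. In Inv1 hindlimb cells with 4 or more Sox9 UMIs it was at 479 CPM in Inv1 and 287 CPM in wild type. Col9a3 was between 0.80 and 0.95 in Dup and between 0.79 and 0.92 in Inv1 hindlimb, but reached 1.30 (1.12 to 1.51) in Inv1 forelimb cells with 4 or more Sox9 UMIs.

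**Figure D4:**
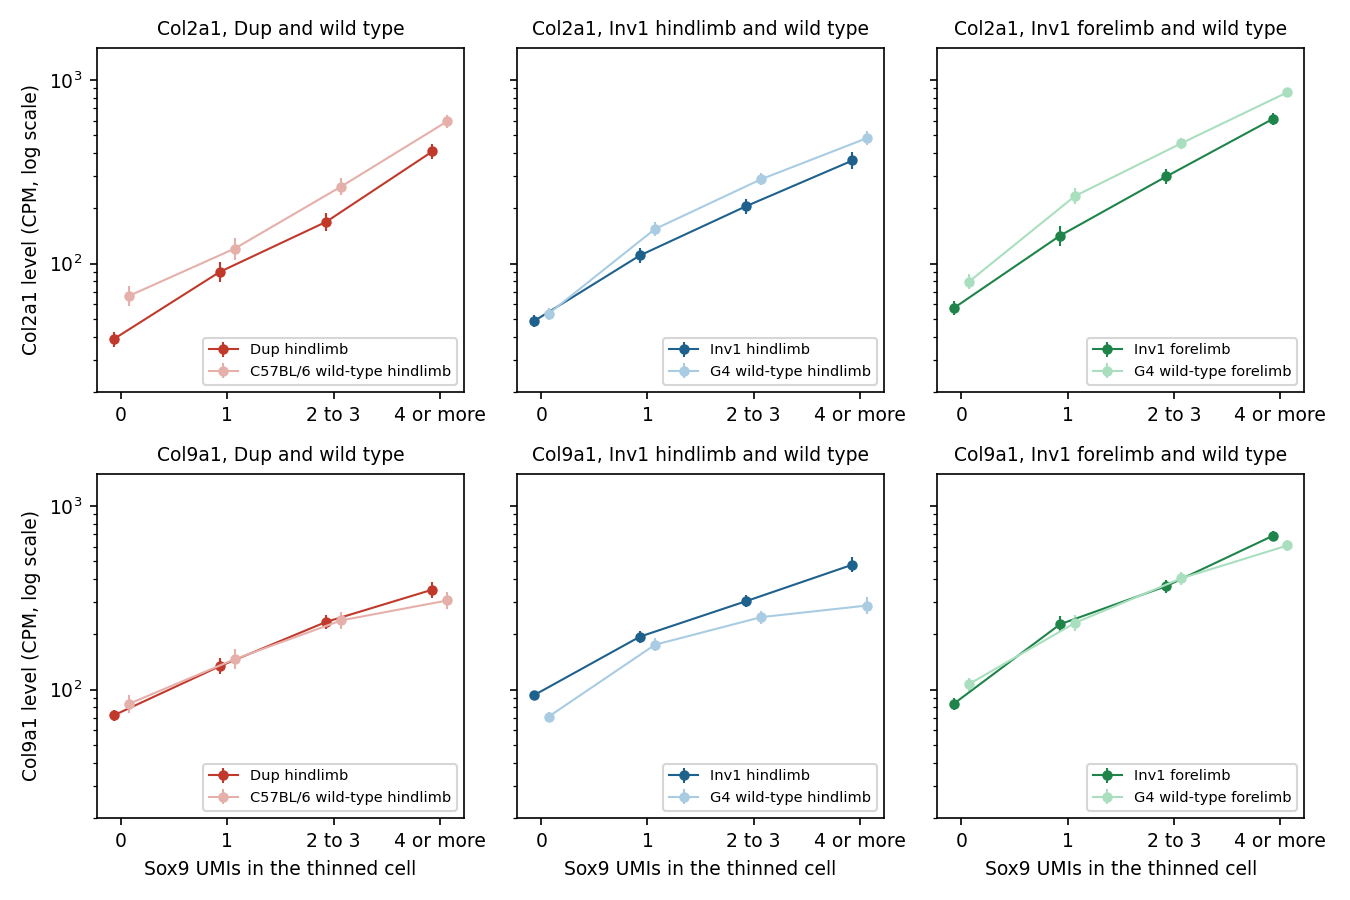
Level (CPM, log scale) of Col2a1 (top row) and Col9a1 (bottom row) in mesenchymal cells thinned to 4000 UMIs, by Sox9 UMIs in the cell, with 95% Poisson bars; each panel holds a mutant and its wild type. Both genes climb with Sox9, the mutant Col2a1 points lie below the wild-type points, and Col9a1 of Inv1 hindlimb lies above its wild type.

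Other cartilage matrix genes, from a list of 22, were also low in Dup over the whole mesenchyme, whose mix of classes differed between the libraries. Of all measured genes, 1.95% were lower by 1.5-fold or more in Dup, 0.327% in Inv1 hindlimb and 9.22% in Inv1 forelimb. The median log2 ratios over all genes were -0.07, 0.04 and -0.17. All 6 at 10 CPM or more were lower by 1.5-fold or more, with a median log2 ratio of -0.66, among them Wwp2, a ubiquitin ligase gene that hosts a cartilage microRNA (52.4 CPM in Dup and 119 CPM in wild type), Vcan, the proteoglycan of condensing mesenchyme (243 CPM in Dup and 409 CPM in wild type), and Col11a1, a chain of collagen XI (48.1 CPM in Dup and 75.0 CPM in wild type). In Inv1 hindlimb 0 of 5 passed, with a median of -0.03, and Col11a1 was above its wild type (ratio 1.22, 1.16 to 1.28) as Col9a1 was. In Inv1 forelimb 2 of 6 were lower, Vcan at 0.63 and Wwp2 at 0.64, with a median of -0.38. Relative to genes of like level 1 of the 6 was lower, Vcan at -0.70 on the log2 scale, while Wwp2 at -0.56 no longer passed.

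Condensation and joint genes, from a list of 23, were mixed. For this and the next 2 lists, 1.95% of all measured genes were lower and 0.716% higher in Dup. The shares were 0.327% and 0.503% in Inv1 hindlimb, and 9.22% and 0.417% in Inv1 forelimb. Medians over all genes were -0.07, 0.04 and -0.17 in these pairs. In Dup 1 of 12 was lower (Foxc1, a forkhead factor, at 0.55) and 2 were higher (Sulf1, an extracellular sulfatase, at 1.81, and the ligand gene Bmp2 at 2.22), with a median of -0.17. In Inv1 hindlimb 0 of 11 were lower and 3 higher (Sulf1 at 1.98, Bmp2 at 1.61 and the adhesion gene Ncam1 at 1.55), with a median of 0.22. In Inv1 forelimb 4 of 15 were lower (Runx1, Foxc1, Trps1 and Fn1) and 0 higher, with a median of -0.30. Of 15 maturation and bone genes, 1 of 6 was lower in Dup (Mef2c at 0.54), 0 of 5 passed in Inv1 hindlimb and 1 of 6 was lower in Inv1 forelimb (Col1a2 at 0.62). Of 5 other Sox genes, 0 of 3 passed in either hindlimb pair and 2 of 3 were lower in Inv1 forelimb (Sox11 at 0.61 and Sox12 at 0.60). These 3 forelimb counts were the same relative to genes of like level, with Runx1 at -0.70, Foxc1 at -0.63, Trps1 at -0.71, Fn1 at -0.59, Col1a2 at -0.70, Sox11 at -0.79 and Sox12 at -0.61 on the log2 scale.

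Outside the mesenchyme, Col2a1 was high in the apical ectodermal ridge (AER), the signalling epithelium at the limb tip. It was at 173 CPM in 25 Dup cells and 244 CPM in 16 C57BL/6 wild-type cells, at 242 CPM in 82 Inv1 hindlimb cells and 301 CPM in 33 G4 wild-type hindlimb cells, and at 217 CPM in 39 Inv1 forelimb cells and 330 CPM in 10 G4 wild-type forelimb cells. Set against mesenchyme of the same library, AER held 2.28 times the level in Dup, 1.59 in C57BL/6 wild type, 3.11 in Inv1 hindlimb, 3.03 in G4 wild-type hindlimb, 1.95 in Inv1 forelimb and 1.51 in G4 wild-type forelimb, where the interval of 0.97 to 2.26 includes 1. Its AER ratio in Dup over wild type was 0.71 (0.42 to 1.16). In the cells called AER, the listed AER markers, Fgf8 among them, summed to 4612 CPM in Dup and 6252 CPM in C57BL/6 wild type. The sums were 1379 CPM in Inv1 hindlimb and 8857 CPM in G4 wild-type hindlimb. In forelimb they were 1495 CPM in Inv1 and 4116 CPM in G4 wild type. The study reported Fgf8 as lost in homozygous Inv1 embryos. In Inv1, loss of that marker therefore cannot be told apart from a difference in the cells. Surface ectoderm markers in them summed to 2335 CPM in Dup and 2177 CPM in C57BL/6 wild type, 3638 CPM in Inv1 hindlimb and 3254 CPM in G4 wild-type hindlimb, and 3349 CPM in Inv1 forelimb and 2120 CPM in G4 wild-type forelimb. In both Inv1 libraries the sum of ectoderm markers thus exceeded that of ridge markers, Fgf8 included. AER levels of mutant and wild type are therefore given side by side only, and the part of these marker differences in them was not tested.

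Sox9 was low in the same cells, at 19.2 CPM in Dup and 71.2 CPM in C57BL/6 wild type, 9.03 CPM in Inv1 hindlimb and 11.1 CPM in G4 wild-type hindlimb, and 5.16 CPM in Inv1 forelimb and 41.3 CPM in G4 wild-type forelimb, from 2 to 14 UMIs a library. The mesenchyme genes Prrx1, Prrx2 and Twist1 summed to 11.1 to 326 CPM in AER and 1014 to 1328 CPM in mesenchyme. All 6 listed mesenchyme markers together reached 736 to 1776 CPM in AER, of which Msx1, a gene that ridge cells also express, Pdgfra and Col1a2 made up most. The part of mesenchymal RNA in the AER values was not tested. AER cells with no UMI of Prrx1, Prrx2 or Twist1 still had Col2a1, at 162 CPM in 16 Dup cells and 738 CPM in 3 C57BL/6 wild-type cells, 257 CPM in 58 Inv1 hindlimb cells and 318 CPM in 30 G4 wild-type hindlimb cells, and 194 CPM in 27 Inv1 forelimb cells and 324 CPM in 5 G4 wild-type forelimb cells. Endothelial cells, which should lack the gene, had 0 to 16.7 CPM of Col2a1, and immune cells, which should lack it too, had 20.4 to 52.0 CPM.

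Other epithelium held less Col2a1. Dorso-ventral ectoderm had Col2a1 at 47.4 to 91.5 CPM over the 6 libraries, a range that meets the immune level, and Sox9 at 7.03 to 97.1 CPM. Cells labelled keratinocytes had Sox9 at 59.6 to 155 CPM in 5 libraries with 15 to 39 cells, with Col2a1 at 2.15 to 20.8 CPM, the reverse of the ridge. The 4 such cells of C57BL/6 wild type had Sox9 at 213 CPM, and mesenchyme markers stood at 1115 CPM in them, against 149 to 241 CPM in the other libraries. Sox6 in dorso-ventral ectoderm was at 11.3 to 27.4 CPM, a range that meets the 19.3 to 53.0 CPM of mesenchyme. Cells labelled neuronal, 4 to 17 a library, had Sox5 at 0 to 205 CPM. It was at 122 CPM in Inv1 hindlimb and 205 CPM in G4 wild-type forelimb, above mesenchyme at 36.3 and 91.8 CPM. In Dup it was at 0 and in G4 wild-type hindlimb at 24.2 CPM, below mesenchyme. Muscle had Col9a1 at 33.7 to 49.1 CPM and Sox5 at 1.67 to 9.98 CPM over the 6 libraries. Immune cells had Sox9 at 78.1 CPM in Dup and 87.3 CPM in C57BL/6 wild type with mesenchyme markers at 395 and 518 CPM, and at 5.93 to 47.9 CPM in the G4 and Inv1 libraries, where those markers were at 44.9 to 197 CPM. The part of other cells' RNA in these values was not tested.

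**Figure D5:**
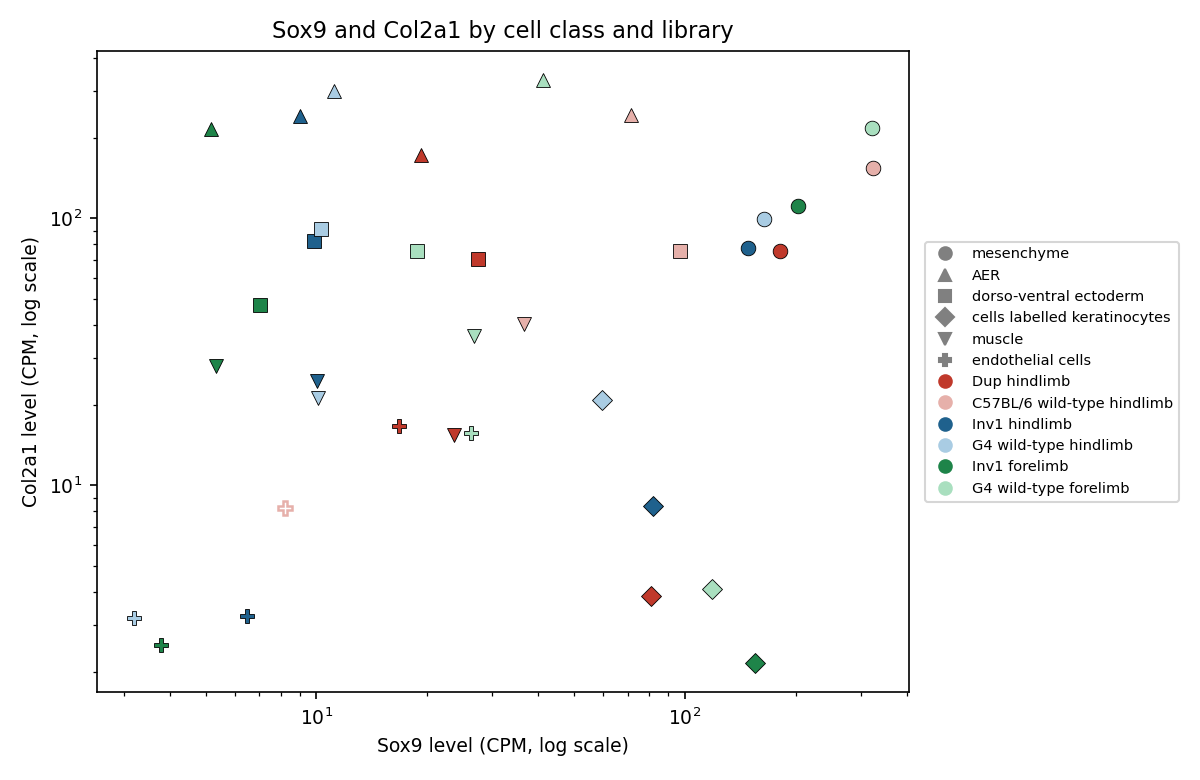
Level of Sox9 against Col2a1 (CPM, both axes on a log scale) per cell class and library, for classes with 10 or more cells; symbols are classes, colors are libraries, and the open symbol had no Col2a1 UMI. AER lies at high Col2a1 and low Sox9, mesenchyme is high for both, and cells labelled keratinocytes lie at Col2a1 of 2.15 to 20.8 CPM and Sox9 of 59.6 to 155 CPM.

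Over the 17 class-library units of 30 or more cells in C57BL/6 and Dup, the genes most like Sox9 by Spearman's rho were Narf (0.98), Rlf (0.98), Ugdh (0.97), Sox5 (0.97) and Sfrp2 (0.96), and those most like Col2a1 were Malat1 (0.96), Bcl9 (0.94), Smarcc2 (0.93), Myst3 (0.93) and Cthrc1 (0.92). The correlation of Sox9 with Col2a1 itself was 0.85. Over the 18 units of G4 and Inv1 it was 0.46. The sets differ in make-up, since the first holds finer mesenchymal classes and no AER, and the second broad classes with 3 AER units. Without AER the second was at 0.76 over 15 units, and with broad classes the first was at 0.82 over 7 units. Over all 18 units of G4 and Inv1, AER included, Epb4.1 (0.91), Usp48 (0.89), Irf2bp1 (0.87), Tex9 (0.86) and Esco2 (0.86) were most like Sox9. Units share libraries and depth, and units of 1 library are not independent, so these are descriptions with no test.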

How the data were processed

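Droplet 3′ single-cell RNA-seq was made from mouse limb buds at E11.5, 6 libraries in all. Per the labels and the study's methods, the authors aligned reads with Cell Ranger version 3 to a custom mm9 reference (the processing notes also name mm10), removed cells with few genes, a high mitochondrial share or a high Scrublet doublet score, and named cell classes from clusters of integrated cells. As deposited, the matrices hold whole-number counts of UMIs, without normalization, 1 value for each gene in each cell. A matrix of hindlimb cells alone has no gene names beside it and was not used for levels.

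Cells with more than 2000 detected genes were kept, and no further doublet calling was run. UMIs were summed per library and class and divided by the totals of the 15668 genes in both matrices (CPM). Intervals are 95%, for counting error only: exact Poisson for levels, exact conditional binomial for ratios and exact Clopper-Pearson for shares. Log2 ratios have 0.5 counts added, and a gene with no UMI is bounded by 3 counts. A gene was measured in a pair when its mean was 10 CPM or more, and changes were counted at 1.5-fold. With 1 library per group no test was run. Thinning drew 4000 UMIs per cell without replacement, leaving out shallower cells. The scripts (Python 3.11.15, numpy 2.4.6, scipy 1.17.1, pandas 2.3.3) were tested on simulated data. Gene symbols and positions come from the NCBIM37 annotation, and promoter windows from RefSeq (GRCm38.p6). The genes, the other gene lists and the alternatives were chosen with earlier results of these data known. The named genes are the 9, always, list genes at 10 CPM or more, and the 5 genes most like Sox9 and Col2a1 by rank correlation among genes at 20 CPM or more. The genes most like Col2a1 in the G4 and Inv1 libraries are not reported here.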

Additional observations from a re-analysis of the deposited data

Results flagged for a closer look

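Col9a1 in mesenchyme went in opposite directions in the 2 limbs of Inv1. Its ratio to G4 wild type was 1.23 in hindlimb (131 CPM in Inv1 and 107 CPM in wild type) and 0.762 in forelimb (165 CPM in Inv1 and 216 CPM in wild type). The difference was not tested, since each limb and genotype has 1 library.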

How the results depend on the processing

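Over the medians and counts of the 3 pairs, 57 alternatives of 72 stayed close to the reported value (medians within the interval, counts within 1.5 times) and 15 moved, of which 1, in Inv1 hindlimb, changed sign. In Dup the median log2 ratio was -0.90 in cells with over 3000 detected genes, -0.24 with 0 genes lower by 1.5-fold or more when finer classes had equal weight, -0.54 with 3 genes without the chondrocyte progenitor classes, -0.55 with 3 genes when the Hox13 and Meis cells had equal weight, and -0.29 with 2 genes in cells with a Sox9 UMI alone. Equal weight of finer classes also turned Col9a3 in Dup to 0.023. In Inv1 hindlimb the median was 0.051 in cells with over 3000 detected genes. In Inv1 forelimb it was -0.52 with 2 genes under median-of-ratios scaling, -0.59 relative to genes of like level, and -0.36 with 1 gene in cells with a Sox9 UMI alone. The Hox13 and Meis, like-level, shared-barcode, Sox9-UMI and without-AER settings were added after seeing the data. For single genes, lists and correlations, 176 alternatives stayed, 88 moved and 1, a called value, reversed. Ratios of single listed genes changed sign under 7 alternatives, which besides Col9a3 in Dup were Sox9 (0.06), Sox5 (0.04) and Sox6 (0.08) in Inv1 hindlimb in cells with over 3000 detected genes, and Col9a3 in Inv1 forelimb (0.02 under median-of-ratios scaling, 0.03 relative to genes of like level and 0.16 in cells with a Sox9 UMI alone), against -0.15 as reported. The cause of these moves was not tested. Finer-class settings could not be run for Inv1. No paired analysis was possible because the groups compared share 1 replicate number. A fit of Inv1 over both limbs with limb as a block, which leaves 1 residual degree of freedom, was not run. Leaving out a replicate was not possible with 1 library a group. Depth limits Acan and Matn1, where 0 to 74 UMIs per library set the intervals.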
